A study of Mus musculus with 119 samples.

Results

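Satellite cells, the stem cells of skeletal muscle, were sorted from uninjured muscle of young wild-type mice into a gate with high CD34 staining (CD34Hi) and a gate with low CD34 staining (CD34Lo), and their RNA was sequenced more deeply than in the other young experiments used here. The comparison is made of 5 libraries of the 119 samples in the series, all those labelled as experiment 3: 3 CD34Hi libraries and 2 CD34Lo libraries. Libraries were chosen by their labels alone. The study concerns FoxO transcription factors and the quiescence of these stem cells into geriatric age, and the young gates give the starting point. Cells of both gates were negative for CD45, Sca-1 and CD31 and positive for α7-integrin, came from untreated wild-type animals described only as young, and were processed straight after sorting without culture. Whether each library is a separate animal is not given in the labels, and the p-values therefore rest on library-to-library spread that could be technical. Libraries are named here by gate and by a number that follows the order of the deposited table and pairs nothing.

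Quiescent satellite cells express Pax7 and usually Myf5, lie under the basement membrane of the muscle fibre, and are held out of the cell cycle until injury. On activation they raise MyoD and leave the cycle again through myogenin (Myog), which switches on the genes of fusion and of the contractile apparatus. CD34 is a surface sialomucin of quiescent satellite cells, and its level was the sort criterion here, so that the transcript Cd34 serves as a check of the gates and not as a finding.

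Total counts per library were 49160722, 43374263 and 38582717 for CD34Hi and 38261838 and 70458581 for CD34Lo. Of 24421 genes in the table, 7888 had no count in any of the 5 libraries and 13929 passed the filter on low counts. Levels are counts-per-million (CPM) values on totals scaled by TMM, the trimmed mean of M-values. The median gene differed by -0.01 on the log2 scale, as CD34Lo minus CD34Hi, the direction of every difference here. Cd34 stood at 183, 178 and 198 CPM in CD34Hi and at 32.1 and 64 CPM in CD34Lo (log2 fold change -1.95, SE 0.27, adjusted p = 0.0145). Both gates carried satellite cell transcripts: Pax7 was at 111, 78.8 and 183 CPM in CD34Hi and 82 and 69.5 CPM in CD34Lo, and Itga7, which encodes the α7-integrin used in the sort, at 389, 340.2 and 440.4 CPM in CD34Hi and 359.8 and 338 CPM in CD34Lo. Ptprc, which encodes CD45, had 0 counts in all 5 libraries, which allows at most 0.0417 to 0.0785 CPM per library by counting error alone, and the haemoglobin genes Hbb-bs and Hba-a1 also had 0 counts. Pecam1, which encodes CD31, was present at 13.4, 53.1 and 15.3 CPM in CD34Hi and 1.36 and 51.3 CPM in CD34Lo. It was thus high in the second library of each gate, and the summed level of 24 endothelial markers was also highest there, at 810 CPM in CD34Hi replicate 2 and 741 CPM in CD34Lo replicate 2 against 225 to 487 CPM in the other 3 libraries. Ly6a, which encodes Sca-1, followed the same libraries, at 3.95, 9.61 and 5.05 CPM in CD34Hi and 0 and 15.8 CPM in CD34Lo. Across genes, log2 levels correlated at 0.933 to 0.965 between CD34Hi libraries, at 0.953 between the CD34Lo libraries and at 0.918 to 0.968 between gates. The ranges within and between gates overlapped.

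By edgeR's quasi-likelihood test, with Benjamini-Hochberg adjustment over all genes tested and a threshold of 0.05, 14 genes were higher in CD34Lo (0.101% of those tested) and 18 were lower (0.129%). All 32 had both CD34Lo libraries outside the range of the 3 CD34Hi libraries. Genes of muscle differentiation were among the largest rises: Tmem8c, Actc1, Myog, Acta1, Srl, Cdkn1c and Myof rose by 2.40 to 7.76 on the log2 scale. The largest falls were those of Myoc, Il33, Igfbp6, Apod and Dcn, with log2 fold changes from -4.44 to -2.94. Since the libraries are bulk samples, fewer cells of a type and less RNA per cell cannot be told apart in any of these differences. With 2 libraries against 3, an exact permutation test of a single gene cannot go below p = 0.1, so that the calls rest on a spread shared across genes. Leaving out the second library of each gate, those with high endothelial markers, kept all 32 genes past the threshold in the same direction, and 134 genes were then higher and 439 lower. With only 1 CD34Lo library left, that fit takes its spread from CD34Hi. The calls depended on the libraries: without CD34Hi replicate 1, 1 gene passed (Dcn), without CD34Lo replicate 1, 10, and without CD34Lo replicate 2, 104. Dcn passed in every alternative fit that kept both CD34Lo libraries. All 32 genes kept their direction in all 15 alternative fits. Because both CD34Lo libraries lay outside the CD34Hi range, that direction was all but fixed beforehand and is no sign of stability.

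**Figure D1:**
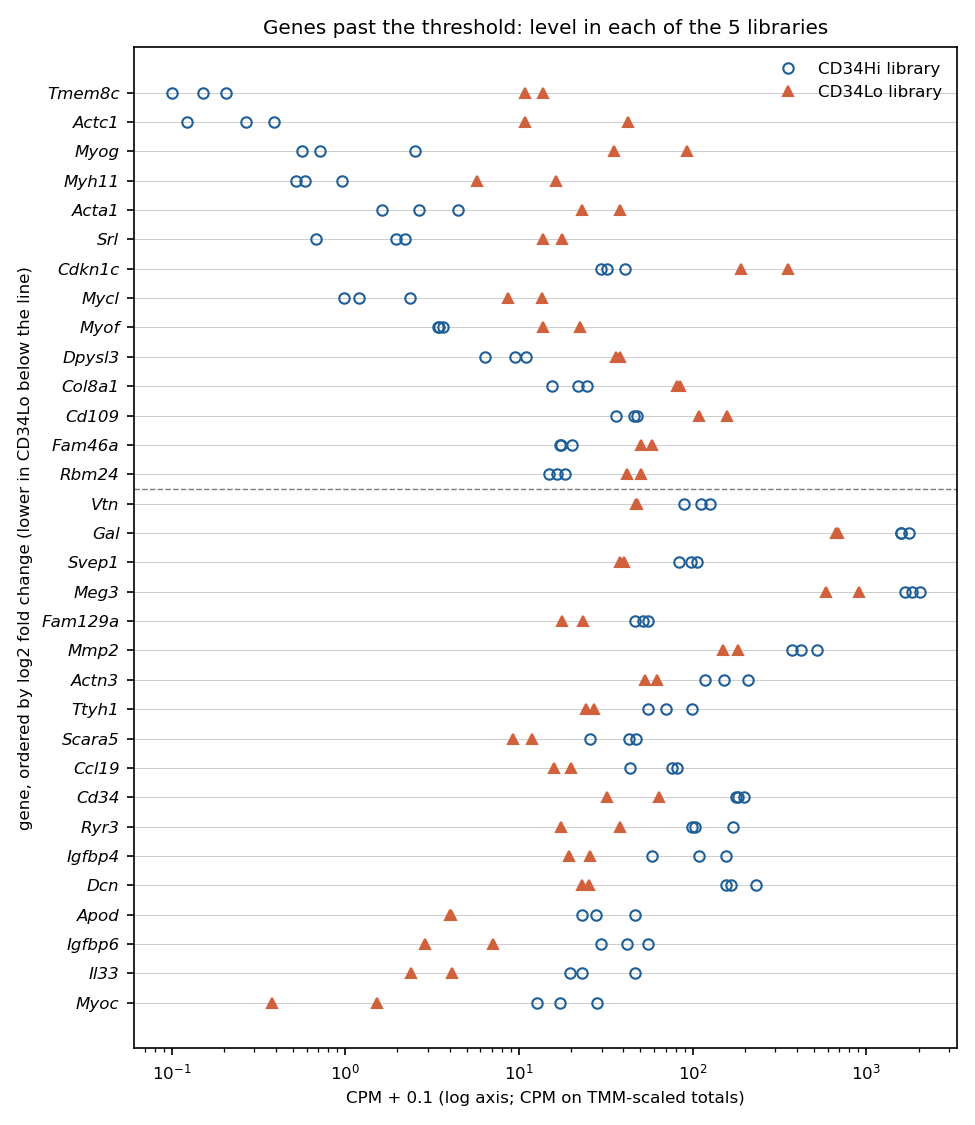
Level of each of the 32 genes past the threshold in each of the 5 libraries, as CPM + 0.1 on a log axis, with open circles for the 3 CD34Hi libraries and filled triangles for the 2 CD34Lo libraries. Triangles and circles do not overlap for any of these genes, which the text counts as all 32; Tmem8c and Actc1 sit below 0.5 CPM in all 3 CD34Hi libraries.

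Myog, the transcription factor of terminal myogenic differentiation, was at 0.612, 0.465 and 2.41 CPM in CD34Hi and at 92.6 and 35.2 CPM in CD34Lo (log2 fold change 5.80, SE 0.64, adjusted p = 0.00636). The lower CD34Lo library was far above the highest CD34Hi library. Tmem8c, which encodes the fusion protein myomaker (now named Mymk; chr2:27061636-27072179, minus strand, GRCm38), had 0.105, 0 and 0.0524 CPM in CD34Hi, from 7 counts in all, and 13.7 and 10.7 CPM in CD34Lo, from 1314 counts (log2 fold change 7.76, SE 0.74, adjusted p = 0.0028). Actc1, the α-actin of heart and of developing skeletal muscle, was at 0.169, 0.0233 and 0.288 CPM in CD34Hi and at 42.4 and 10.7 CPM in CD34Lo (log2 fold change 7.38, SE 0.75, adjusted p = 0.00352). In Myog and Actc1 the first CD34Lo library was above the second, so that the gates separated although the CD34Lo libraries differed from each other. With limma voom, an alternative fit, Myog, Tmem8c and Actc1 kept their direction and did not pass the threshold. Myog also did not pass with robust quasi-likelihood. Acta1, the α-actin of adult skeletal muscle, was at 2.57, 1.54 and 4.35 CPM in CD34Hi and at 38 and 23.1 CPM in CD34Lo (log2 fold change 3.44, SE 0.42, adjusted p = 0.00868). The actin genes are close paralogs, and how reads shared between them were counted is not given in the sources used here, so that the split between Actc1 and Acta1 is uncertain. Per kilobase of exon, mean Myog rose from 0.777 CPM in CD34Hi to 42.7 CPM in CD34Lo, and mean Actc1 from 0.0989 to 16.4 CPM, while Acta1 reached 19.9 CPM in CD34Lo.

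The bases before the start sites of Myog, Acta1 and Actc1 are shown because these genes rose together and because E-boxes (CANNTG) are the sequences that myogenin and MyoD recognise. Each run is the 250 bases before the RefSeq start site (GRCm38.p6), 5′ to 3′ on the gene's strand, with every CANNTG in capitals. Myog lies at chr1:134289989-134292548, plus strand, Acta1 at chr8:123891769-123894751, minus strand and Actc1 at chr2:114047282-114053548, minus strand (GENCODE M21, GRCm38), and all encode proteins. The RefSeq start of Actc1 lies inside the GENCODE gene, so that its run lies within the gene as GENCODE draws it.
Myog, chr1:134289754-134290003, plus strand: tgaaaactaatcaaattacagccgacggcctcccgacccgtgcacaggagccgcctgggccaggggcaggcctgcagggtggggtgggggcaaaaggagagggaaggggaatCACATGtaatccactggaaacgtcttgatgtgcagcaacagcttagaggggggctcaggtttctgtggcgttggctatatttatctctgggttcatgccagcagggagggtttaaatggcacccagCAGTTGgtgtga
Acta1, chr8:123894776-123895025, minus strand: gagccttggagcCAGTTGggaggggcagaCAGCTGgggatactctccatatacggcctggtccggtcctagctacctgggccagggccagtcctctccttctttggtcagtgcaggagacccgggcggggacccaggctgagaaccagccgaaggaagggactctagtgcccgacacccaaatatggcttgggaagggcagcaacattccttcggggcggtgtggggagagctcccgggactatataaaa
Actc1, chr2:114052876-114053125, minus strand: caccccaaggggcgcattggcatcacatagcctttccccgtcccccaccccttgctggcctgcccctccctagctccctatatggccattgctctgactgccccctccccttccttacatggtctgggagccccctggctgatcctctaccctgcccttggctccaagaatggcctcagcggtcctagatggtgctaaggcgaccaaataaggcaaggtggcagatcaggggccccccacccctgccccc
The Myog run held 2 E-boxes, the Acta1 run 2, of which 1 is CAGCTG, and the Actc1 run 0. Over 300-base windows, which run 50 bases further past the start site, Myog held 2 CANNTG, Acta1 2 and Actc1 1. At least 1 CANNTG stood in 66.2% of the 32851 RefSeq promoters over the same 250 bases, and CAGCTG, which is one form of CANNTG, in 13% of them. Over the whole 300-base promoter windows, CAGCTG was found on either strand in 1 of the 9 promoters of the 8 higher genes with an entry, in 2 of the 15 promoters of the 13 lower genes with an entry, and in 16.3% of all promoters. The FoxO element GTAAACA, searched on both strands in the same windows, was in 0 of 9, in 1 of 15 (Il33) and in 3.65% of all promoters. A match is a description of the letters and not a binding site.

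Cdkn1c, which encodes the cyclin-dependent kinase inhibitor p57 and acts when myoblasts leave the cycle, had the highest CPM of the genes that rose (chr7:143458339-143461050, minus strand). It was at 31.9, 40.8 and 29.7 CPM in CD34Hi and at 355 and 189 CPM in CD34Lo, a 7.97-fold rise (log2 fold change 2.99, SE 0.26, adjusted p = 0.0015). Myof, a membrane protein of myoblast fusion, was at 3.55, 3.35 and 3.32 CPM in CD34Hi and 22.3 and 13.7 CPM in CD34Lo (log2 fold change 2.40, SE 0.33, adjusted p = 0.0145). Srl, a calcium-binding protein of the sarcoplasmic reticulum, was at 1.86, 0.582 and 2.12 CPM in CD34Hi and 17.6 and 13.6 CPM in CD34Lo (log2 fold change 3.36, SE 0.51, adjusted p = 0.0262). Rbm24, an RNA-binding protein of muscle splicing, was at 18.3, 14.7 and 16.5 CPM in CD34Hi and 50.2 and 41.7 CPM in CD34Lo (log2 fold change 1.47, SE 0.22, adjusted p = 0.0247). Its rise, 2.78-fold, was the smallest of the 14.

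Of 78 genes of myogenic commitment and differentiation, 68 were tested, 7 rose (Actc1, Cdkn1c, Myof, Myog, Rbm24, Srl and Tmem8c) and 0 fell, with a median log2 fold change of 0.49 against -0.01 over all genes. With CD34Hi replicate 1 left out 0 genes of the list passed as higher, and with CD34Lo replicate 1 left out 4 did. By role, 1 of 13 tested transcription factors rose (Myog) and 2 of 10 fusion genes (Myof and Tmem8c). So did 1 of 17 embryonic contractile genes (Actc1). Of 18 genes grouped as cell cycle exit and signalling 3 rose (Cdkn1c, Rbm24 and Srl). Of these only Cdkn1c is in the cell cycle list. The 10 genes of the acetylcholine receptor and synapse had a median of 0.17. Myod1, the transcription factor of activated satellite cells, did not pass the test: it was at 1365, 1570.1 and 1791 CPM in CD34Hi and 2476 and 2143 CPM in CD34Lo (log2 fold change 0.55, SE 0.16, adjusted p = 0.305). Both CD34Lo libraries were above all 3 CD34Hi libraries for Myod1, by less than 1 on the log2 scale. In the young libraries of experiments 2 and 1 Myod1 differed by -0.35 and 0.11, without passing the test. Myf6, a late myogenic transcription factor, was at 1.98, 2.05 and 2.12 CPM in CD34Hi and 0.379 and 0.487 CPM in CD34Lo (adjusted p = 0.57). Ache, the acetylcholinesterase of the synapse, was at 3.97, 4.21 and 9.76 CPM in CD34Hi and 2.73 and 2.86 CPM in CD34Lo (adjusted p = 0.627). Both were thus below the CD34Hi range without passing the test.

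A wider description counts genes whose 2 CD34Lo libraries lay outside the CD34Hi range with a fitted difference of at least 1 on the log2 scale. Over all genes tested this held for 3.51% on the higher side and 3.87% on the lower side, and the share depended on level: it was 20.3% in all under 1 CPM and 1.29% over 100 CPM. Of the 68 myogenic genes, 18 were higher and 2 lower by this count. Among the 32 of them with a mean of 10 CPM or more, 5 were higher and 0 lower (Actc1, Cdh2, Cdkn1c, Myog and Rbm24), beside 0.407% and 1.58% of all genes at that level. Among the 36 under 10 CPM, 13 were higher and 2 lower, beside 7.54% and 6.85%. Ttn, the giant spring protein of the sarcomere, was at 0.105, 0.0698 and 0.942 CPM in CD34Hi and 21.9 and 7.17 CPM in CD34Lo and missed the threshold (adjusted p = 0.0533). Tnnt2, the cardiac and embryonic troponin T, was at 0.19, 0.0233 and 0.0262 CPM in CD34Hi and 3.26 and 1.61 CPM in CD34Lo (adjusted p = 0.277).

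**Figure D2:**
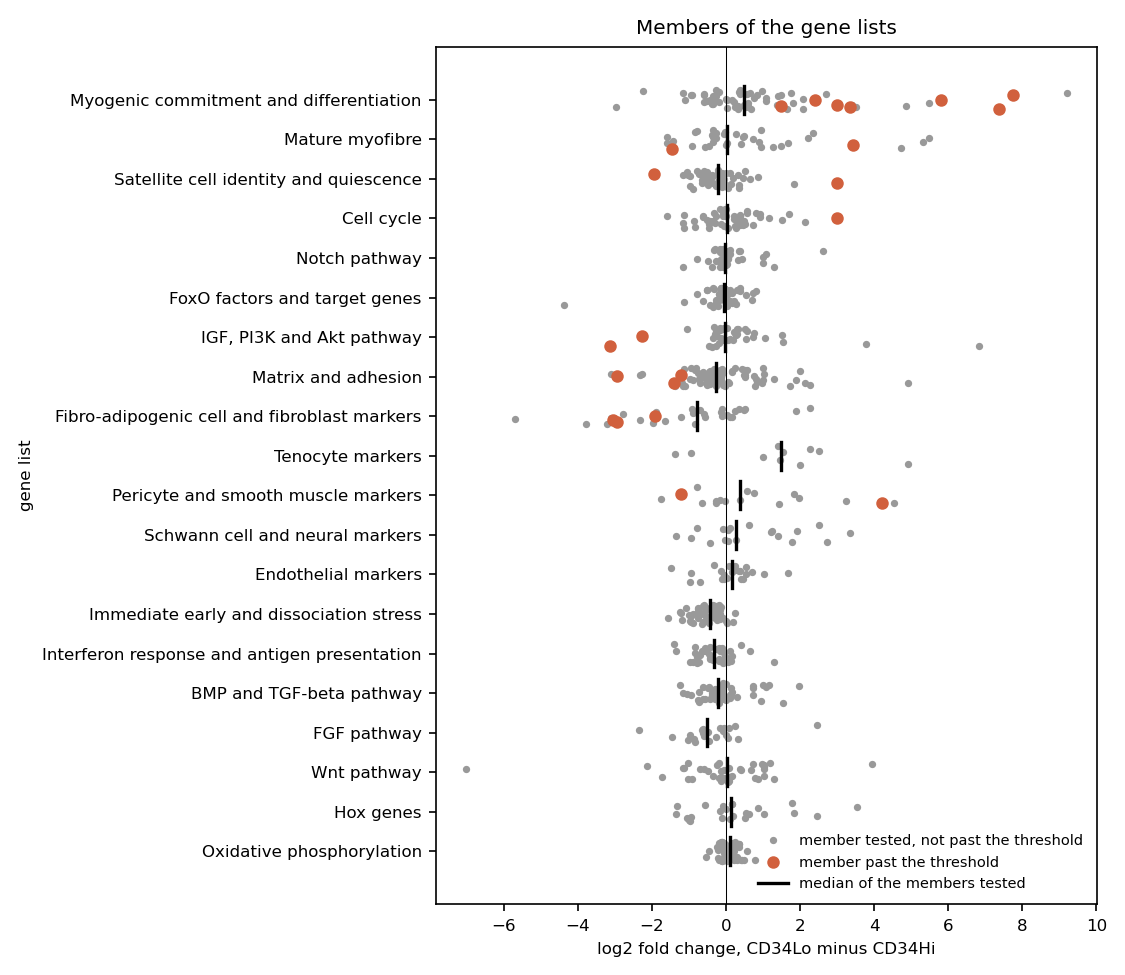
Fitted log2 fold change (CD34Lo minus CD34Hi) of every tested member of 20 gene lists, with small grey points for members that did not pass the test, large points for members that did, and a black bar at the median of the tested members. The large points of the myogenic list all lie to the right of 0 and those of the fibroblast list all lie to the left.

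Among 42 genes of the mature fibre, 36 were tested, Acta1 rose and Actn3 fell, with a median of 0.02. Actn3, the α-actinin of fast-fibre Z-discs, was at 151, 118 and 209 CPM in CD34Hi and 62 and 53.4 CPM in CD34Lo (log2 fold change -1.46, SE 0.24, adjusted p = 0.0456), so that the contractile genes that passed did not share a direction. The other 6 higher genes belong to neither the myogenic nor the mature fibre list, and Myh11 is in the pericyte and smooth muscle list. Myh11, the myosin heavy chain of smooth muscle, was at 0.485, 0.419 and 0.864 CPM in CD34Hi and 16.3 and 5.66 CPM in CD34Lo (log2 fold change 4.22, SE 0.58, adjusted p = 0.0145). Mycl, a transcription factor of the Myc family, was at 1.1, 0.884 and 2.25 CPM in CD34Hi and 13.5 and 8.61 CPM in CD34Lo (log2 fold change 2.97, SE 0.50, adjusted p = 0.0478). Dpysl3, a cytoskeletal protein known from growing axons, was at 10.8, 6.31 and 9.37 CPM in CD34Hi and 38.1 and 36.2 CPM in CD34Lo (log2 fold change 2.07). Col8a1, a short-chain collagen, was at 15.4, 21.9 and 24.5 CPM in CD34Hi and 81.6 and 84.1 CPM in CD34Lo (2.01). Cd109, a membrane-anchored co-receptor of transforming growth factor β, was at 47.7, 36.2 and 45.8 CPM in CD34Hi and 159 and 109 CPM in CD34Lo (1.63). Fam46a, a poly(A) polymerase, was at 19.98, 17.1 and 17.5 CPM in CD34Hi and 58.6 and 50.3 CPM in CD34Lo (1.58). For Dpysl3, Col8a1 and Fam46a the CD34Lo libraries lay close together, while for Myog and Actc1 the first was well above the second.

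Dcn, the matrix proteoglycan decorin (chr10:97479609-97518143, plus strand), had the lowest adjusted p of all genes. It was at 167, 157 and 232 CPM in CD34Hi and 25.3 and 22.9 CPM in CD34Lo, a 7.67-fold fall (log2 fold change -2.94, SE 0.23, adjusted p = 0.000963). Apod, a lipid carrier, was at 27.8, 22.9 and 46.4 CPM in CD34Hi and 3.99 and 3.89 CPM in CD34Lo (log2 fold change -3.04, SE 0.35, adjusted p = 0.00773). Ccl19, a chemokine, was at 81.1, 43.5 and 76.5 CPM in CD34Hi and 15.8 and 19.8 CPM in CD34Lo (log2 fold change -1.91, SE 0.29, adjusted p = 0.0266). These were the 3 of 32 fibroblast and fibro-adipogenic markers that fell, none rose, and the median of the list was -0.78. The count of falls was 1 without CD34Hi replicate 1, 2 without CD34Hi replicate 3 or without CD34Lo replicate 1, and 8 without CD34Lo replicate 2. By separation of the libraries, 13 members were lower and 2 higher (Fmod and Postn). Of the 20 members at 10 CPM or more, 7 were lower, beside 1.58% of all genes at that level, and of the 12 below 10 CPM, 6 were lower, beside 6.85%. Smoc2, a matricellular protein, was at 16.5, 9.17 and 37.3 CPM in CD34Hi and 0.606 and 2.41 CPM in CD34Lo and missed the threshold (adjusted p = 0.0712).

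Pdgfra, the defining receptor of fibro-adipogenic cells, was at 1.81, 1.33 and 4.32 CPM in CD34Hi and 3.71 and 1.39 CPM in CD34Lo (log2 fold change 0.03, adjusted p = 0.995). Col1a1, the main chain of type I collagen, was at 51.1, 39.4 and 102 CPM in CD34Hi and 104 and 40.04 CPM in CD34Lo (0.17, adjusted p = 0.975), with the gates overlapping in both genes. The summed level of the 32 markers was 3787 to 5897 CPM in CD34Hi and 2909 to 3488 CPM in CD34Lo, with no marker at 0 in all libraries. The gates did not overlap in that sum, and the part of other cells in these differences was not tested.

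Myoc, the secreted glycoprotein myocilin, was at 17.1, 12.6 and 28.1 CPM in CD34Hi and 0.278 and 1.42 CPM in CD34Lo (log2 fold change -4.44, SE 0.64, adjusted p = 0.0204). Il33, an alarmin cytokine, was at 46.6, 22.9 and 19.7 CPM in CD34Hi and 2.3 and 4 CPM in CD34Lo (log2 fold change -3.23, SE 0.44, adjusted p = 0.0145). Igfbp6, which binds insulin-like growth factor II, was at 41.8, 29.4 and 55.4 CPM in CD34Hi and 6.97 and 2.78 CPM in CD34Lo (log2 fold change -3.13, SE 0.43, adjusted p = 0.0145). Igfbp4, which holds insulin-like growth factors away from their receptor, was at 109, 58.2 and 155 CPM in CD34Hi and 25.6 and 19.3 CPM in CD34Lo (log2 fold change -2.26, SE 0.36, adjusted p = 0.0375). These binding proteins were the only 2 of 41 tested genes of the IGF, PI3K and Akt pathway to pass the test, and the median of the pathway was -0.03. By separation 5 of the 41 were higher (12.2%, beside 3.51% of all genes) and 3 lower (7.32%, beside 3.87%). The 5 higher genes were all under 10 CPM, where 7.54% of all genes were higher. The 3 lower ones were at 10 CPM or more, where 1.58% of all genes were lower. The 10 tested binding proteins and their regulators had a median of 0.62. By separation 2 of them were lower (Igfbp4 and Igfbp6, 20%) and 3 higher (Igfals, Pappa and Pappa2, 30%), the higher ones not past the test. The 24 kinases and effectors of the pathway had a median of 0. Inpp4b, a lipid phosphatase, was the only one of them whose gates separated by 1 or more (higher in CD34Lo, 4.17%, beside 3.51% of all genes). The 4 receptor genes of the pathway ranged from -0.35 to -0.05.

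Among 92 genes of matrix and adhesion, 90 were tested, 3 fell (Dcn, Mmp2 and Vtn) and 0 rose, beside 0.129% and 0.101% of all genes, with a median of -0.28. By separation of the libraries 8 were higher and 8 lower, 8.89% each way beside 3.51% and 3.87% of all genes. The higher ones were Col11a1, Fmod, Itga1, Itgb8, Mfap4, Postn, Thbs4 and Tnc. At 10 CPM or more 4.41% were higher, beside 0.407% of all genes at that level, and 5.88% lower, beside 1.58%. Below 10 CPM 22.7% were higher, beside 7.54%, and 18.2% lower, beside 6.85%. The count of falls was 1 without CD34Hi replicate 1 or without CD34Lo replicate 1, and 2 without CD34Hi replicate 3. Mmp2, a gelatinase, was at 421, 374 and 518 CPM in CD34Hi and 149 and 182 CPM in CD34Lo (log2 fold change -1.41, SE 0.19, adjusted p = 0.0145). Vtn, the adhesive glycoprotein vitronectin, was at 112, 89.4 and 126 CPM in CD34Hi and 47.1 and 47.8 CPM in CD34Lo (log2 fold change -1.20, SE 0.20, adjusted p = 0.044). Svep1, a large adhesion protein of the extracellular matrix outside the list, was at 98.2, 82.9 and 106 CPM in CD34Hi and 40.3 and 38.3 CPM in CD34Lo (log2 fold change -1.29, SE 0.19, adjusted p = 0.0226). The 13 basement membrane genes had fold changes from -0.97 to -0.04, all below 0, with a median of -0.28.

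Meg3 and Gal had the highest CPM of the genes that fell. Meg3, a maternally expressed long noncoding RNA, was at 2027, 1830.5 and 1664 CPM in CD34Hi and 586 and 909 CPM in CD34Lo (log2 fold change -1.30, SE 0.21, adjusted p = 0.036). Gal, the neuropeptide galanin, was at 1768, 1574 and 1591 CPM in CD34Hi and 671 and 684 CPM in CD34Lo (log2 fold change -1.28, SE 0.15, adjusted p = 0.00868), with both CD34Lo libraries close together. Per kilobase of exon, Gal reached 2087 CPM in CD34Hi and Meg3 101.8 CPM. Ryr3, a ryanodine receptor that releases calcium from internal stores, was at 170.0, 99.1 and 103 CPM in CD34Hi and 17.4 and 38 CPM in CD34Lo (log2 fold change -2.16, SE 0.35, adjusted p = 0.0435). Exons of Aven on the opposite strand cover 4.83% of Ryr3, and the library kit named in the labels does not mark strand. Scara5, a ferritin receptor, was at 43.2, 25.4 and 47.3 CPM in CD34Hi and 9.09 and 11.7 CPM in CD34Lo (-1.89). Ttyh1, an anion channel of the Tweety family, was at 70.2, 55.2 and 99.7 CPM in CD34Hi and 24.2 and 26.9 CPM in CD34Lo (-1.55). Fam129a, a stress-response protein, was at 51.6, 46.7 and 55.4 CPM in CD34Hi and 17.6 and 23.3 CPM in CD34Lo (-1.32). The gates did not overlap for any of these genes.

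Of the 53 genes of satellite cell identity and quiescence, all tested, Cd34 fell, Cdkn1c rose, and 40 of 53 had a fold change below 0, beside 50.8% of all genes. The median was -0.22. Chrdl2, an antagonist of bone morphogenetic proteins, missed the threshold narrowly: it was at 508, 505 and 666 CPM in CD34Hi and 258 and 279 CPM in CD34Lo (log2 fold change -1.06, SE 0.18, adjusted p = 0.0507). Calcr, the calcitonin receptor that holds satellite cells in quiescence, was at 188, 174 and 168 CPM in CD34Hi and 74 and 118 CPM in CD34Lo (log2 fold change -0.88, SE 0.21, adjusted p = 0.176). Spry1, an inhibitor of receptor tyrosine kinase signalling, was at 196, 175 and 198 CPM in CD34Hi and 101 and 161 CPM in CD34Lo (log2 fold change -0.53, SE 0.21, adjusted p = 0.488). Chrdl2, Calcr and Spry1 each had both CD34Lo libraries below all 3 CD34Hi libraries. In the young libraries of experiments 2 and 1 Chrdl2 differed by -0.43 and -0.71, and Spry1 by -0.33 and -0.35. Calcr differed there by -0.08 and 0.18, and none of these passed the test. Pax7 (-0.71) and Myf5 (-0.35) overlapped between gates.

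The study's title concerns FoxO transcription factors, which keep quiescence genes on and are held in the cytoplasm by Akt. Foxo1 was at 60.3, 77.8 and 64.5 CPM in CD34Hi and 53.6 and 70.7 CPM in CD34Lo, Foxo3 at 24.1, 24 and 43 CPM in CD34Hi and 33.5 and 25.8 CPM in CD34Lo, and Foxo4 at 38.4, 28.7 and 41 CPM in CD34Hi and 41 and 38.7 CPM in CD34Lo. The 4 FoxO factors tested had log2 fold changes from -0.15 to 0.14 and overlapped between the gates. The 47 tested target genes had a median of -0.05. Over the 51 factors and targets 0 passed edgeR's test, 6 (11.8%) had an unadjusted p under 0.05 and 1 passed in DESeq2. Over all 13929 genes tested, 1177 (8.45%) had an unadjusted p under 0.05 in edgeR's test, 414 higher and 763 lower. Of the same 13929 genes, 256 passed in DESeq2, 70 higher and 186 lower. Pck1, a gluconeogenic enzyme, was the only one of the 51 whose gates separated by 1 or more (1.96% lower, beside 3.87% of all genes). It was at 0.274, 0.0931 and 0.471 CPM in CD34Hi and 0.0253 and 0 CPM in CD34Lo. In the Notch pathway, a signal that holds satellite cells quiescent, 0 of 34 genes passed edgeR's test. Of the 34, 3 (8.82%) had an unadjusted p under 0.05 and 1 passed in DESeq2. The median of the pathway was -0.03. Its ligands (median 0.01), receptors (-0.12) and targets (0.07) had medians close to that of all genes.

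The immediate early and dissociation stress genes, which are induced within minutes to hours of tissue digestion, had a fold change below 0 in 49 of 53 cases, beside 50.8% of all genes, with a median of -0.43. None passed edgeR's test. An unadjusted p under 0.05 was found for 19 (35.8%, beside 8.45% of all genes), all lower, and 2 passed in DESeq2. Fosb was at 1810.5, 1322 and 3251 CPM in CD34Hi and 854 and 1008 CPM in CD34Lo, and Nr4a3 at 181, 132 and 359.5 CPM in CD34Hi and 98.6 and 95.9 CPM in CD34Lo. The third CD34Hi library was the highest for both genes, and every CD34Hi library was above both CD34Lo libraries. In the young libraries of experiments 2 and 1 both genes were instead above 0, without passing the test. Fosb differed there by 0.53 and 0.21 on the log2 scale, and Nr4a3 by 0.11 and 0.78. In the cell cycle list 1 of 50 genes passed, the inhibitor Cdkn1c, with a median of 0.04. The 17 cyclins and kinases had a median of 0.06 and the 22 genes of replication and mitosis a median of 0.2.

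Markers of other cells of muscle were present in both gates, and their lists held genes on both sides. Among 19 tested Schwann cell and neural genes 0 passed edgeR's test and 4 passed in DESeq2. An unadjusted p under 0.05 was found for 8 (42.1%, beside 8.45% of all genes). By separation 7 were higher and 1 lower. At 10 CPM or more 33.3% were higher, beside 0.407% of all genes at that level, and below it 38.5%, beside 7.54%. Sox10, the transcription factor of the lineage, was at 0.485, 0.209 and 0.759 CPM in CD34Hi and 5.56 and 4.37 CPM in CD34Lo (log2 fold change 3.35, SE 0.74, adjusted p = 0.134). The summed level of the 24 Schwann and neural markers was 549 to 745 CPM in CD34Hi and 548 to 638 CPM in CD34Lo. Among 10 tenocyte markers, with a median of 1.49, 0 passed edgeR's test (5, or 50%, with an unadjusted p under 0.05, 4 in DESeq2). By separation 5 were higher (50%, beside 3.51% of all genes) and 1, Mkx, lower (10%, beside 3.87%). Of the 3 at 10 CPM or more 2 were higher, beside 0.407% of all genes at that level. Of the 7 below it 3 were higher, beside 7.54%, and 1 lower, beside 6.85%. Col11a1, a fibrillar collagen of cartilage and tendon, was at 0.148, 0 and 0.0785 CPM in CD34Hi and 3.36 and 1.42 CPM in CD34Lo. Fmod, the tendon proteoglycan fibromodulin, was at 4.01, 2.61 and 6.07 CPM in CD34Hi and 34 and 7.12 CPM in CD34Lo. The 10 markers summed to 302 to 594 CPM in CD34Hi and 243 to 345 CPM in CD34Lo. Among 17 pericyte and smooth muscle genes Myh11 rose and Vtn fell. By separation 5 were higher (29.4%, beside 3.51% of all genes) and 1 lower (5.88%, beside 3.87%). The higher ones were Acta2, Cnn1, Myh11, Ndufa4l2 and Rgs5. At 10 CPM or more 12.5% were higher, beside 0.407% of all genes at that level, and 12.5% lower, beside 1.58%. Below 10 CPM 44.4% were higher, beside 7.54%, and 0% lower, beside 6.85%. Rgs5, a regulator of G-protein signalling in pericytes, stood at 3.33, 4.77 and 5.99 CPM in CD34Hi and 17.2 and 16.3 CPM in CD34Lo (log2 fold change 1.84, SE 0.33, adjusted p = 0.0603). The 18 markers summed to 1595 to 2828 CPM in CD34Hi and 1664.5 to 1856 CPM in CD34Lo. Pdgfrb, the receptor that defines pericytes, overlapped between gates (4.22, 6.21 and 12.4 CPM in CD34Hi and 14.4 and 11.5 CPM in CD34Lo). Of 23 endothelial markers 0 passed edgeR's test (2, or 8.7%, with an unadjusted p under 0.05, both lower, 2 in DESeq2), with a median of 0.16. Of 30 immune markers 10 were tested and 0 passed edgeR's test (0 with an unadjusted p under 0.05, 0 in DESeq2), 8 were at 0 in all libraries, and the sum was 20.4 to 34.4 CPM in CD34Hi and 21.6 to 28 CPM in CD34Lo. No marker of the tenocyte, Schwann, pericyte or endothelial lists was at 0 in all 5 libraries, and the part of such cells in the differences was not tested.

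Libraries of 38261838 to 70458581 counts had between 13340 and 15206 genes with at least 1 count. Young libraries of the same gates from experiment 2, with 5179858 to 8910365 counts, had 14348 to 15618, and those from experiment 1, with 6272928 to 16105058 counts, had 13055 to 14376. When every deep library was thinned to 5179858 counts, 12766 to 13955 genes kept a count. That range lay below the range of experiment 2, where the shallowest library had the same total, and overlapped the range of experiment 1.

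At a mean under 1 CPM, 2127 genes were tested, 0 passed edgeR's test and 21 were past the threshold in DESeq2. An unadjusted p under 0.05 was found for 59 (2.77%, beside 8.45% of all genes). Of these 2127, 52.4% had 0 counts in one CD34Hi library and 10 or more in another, and 25.9% did so between the 2 CD34Lo libraries. Between 1 and 10 CPM the shares were 3.46% and 1.53%, and from 10 CPM up both were 0%. The median standard error of the log2 fold change was 2.05 under 1 CPM, 0.58 from 1 to 10, 0.24 from 10 to 100 and 0.17 above. Of the 32 genes past the threshold, 5 had a mean between 1 and 10 CPM, 20 between 10 and 100, and 7 above. There were 1740 genes that passed the filter in experiment 3 and in neither experiment 1 nor experiment 2. Of these, 1311 had a mean under 1 CPM and 0 passed edgeR's test (60, or 3.45%, at an unadjusted p under 0.05, 14 in DESeq2).

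**Figure D3:**
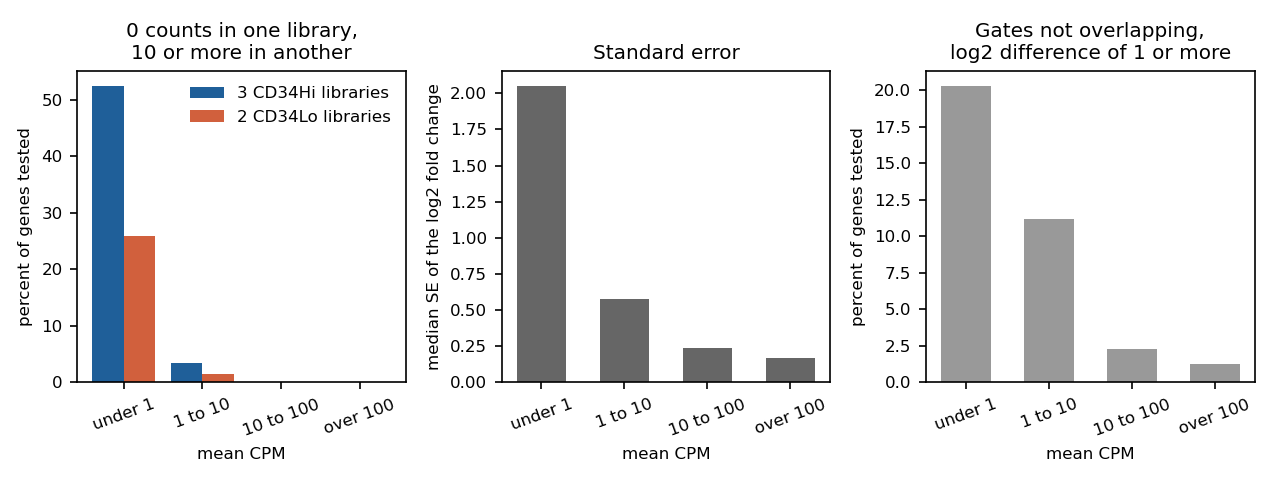
For genes tested, grouped by mean CPM over the 5 libraries: the percent with 0 counts in one library of a gate and 10 or more in another (left), the median standard error of the log2 fold change (middle), and the percent whose gates do not overlap with a log2 difference of 1 or more (right). All 3 measures fall with level, from 52.4%, 2.05 and 20.3% under 1 CPM to 0%, 0.17 and 1.29% over 100 CPM.

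**Figure D4:**
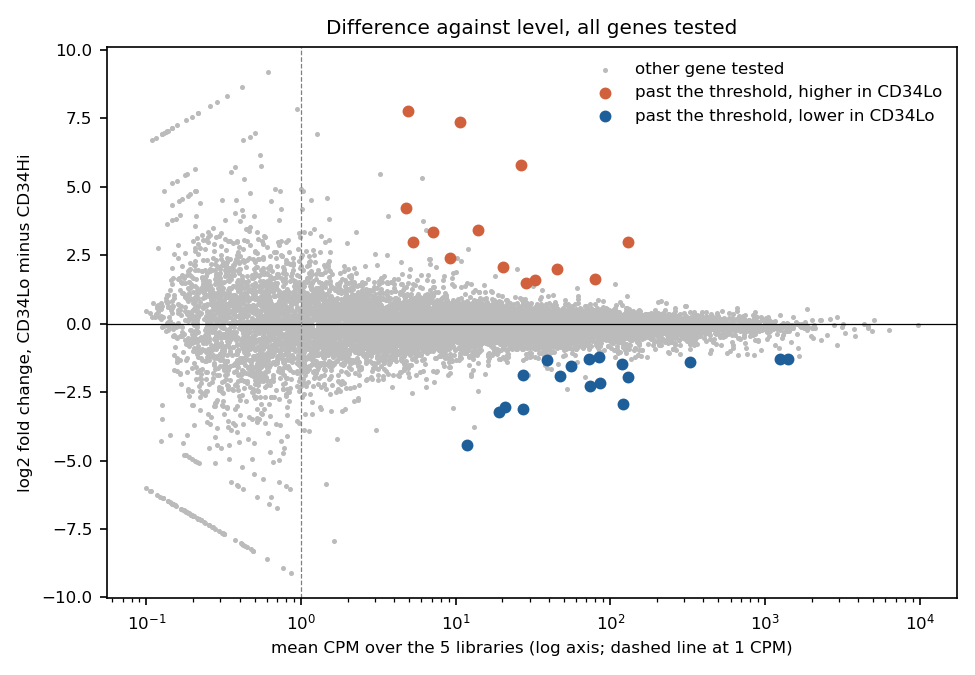
Fitted log2 fold change against mean CPM on a log axis for the 13929 genes tested, with genes past the threshold in colour and a dashed line at 1 CPM. No coloured point lies under 1 CPM, and the spread of the grey points widens toward low levels.

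The low-level genes with the smallest unadjusted p show what such counts look like. Tmem182, a membrane protein of muscle, had 1 count in the 3 CD34Hi libraries together and 262 in CD34Lo, a ratio of 302 with a 95% counting interval of 53.7 to 11970.0, at 2.3 and 2.38 CPM in CD34Lo (adjusted p = 0.108). Chrng, the fetal subunit of the muscle acetylcholine receptor, had 0 counts in CD34Hi and 145 in CD34Lo, at least 55.7-fold higher with a floor of 3 counts over the group (adjusted p = 0.247). Chrna4, a neuronal acetylcholine receptor subunit, had 1 count against 111, and Ky, a protein of the muscle fibre, 2 against 128. Btla, a lymphocyte receptor, had 0 against 110 counts (at least 42.3-fold), and Lrrtm2, a synaptic adhesion protein, 1 against 115. In experiment 1 Tmem182 passed edgeR's test (log2 fold change 9.03, adjusted p = 0.0217), with a CD34Hi mean of 0 CPM. In experiment 2 it did not pass (1.92). Lrrtm2 differed by -0.10 in experiment 1 and 0.28 in experiment 2, without passing the test. On the lower side, Sprr1a, a protein of cornified epithelium, had 188 counts in CD34Hi and 0 in CD34Lo (at least 54.4-fold lower, adjusted p = 0.198). Cfd, the adipocyte protease adipsin, had 78, 1 and 81 counts in the CD34Hi libraries and 0 in CD34Lo, and Nr1h5, a nuclear receptor, 82, 48 and 7 against 0. Depdc1a, a mitotic protein, had 163 counts against 2, Cks1brt 171 against 2, and Lypd2 148 against 1. Counting intervals and floors cover counting error only, and no gene under 1 CPM passed the test over the libraries of experiment 3.

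Experiments 1 and 2 hold other young wild-type libraries of the same gates, 4 against 4 in each, and share no library with experiment 3. Fitted alone, experiment 1 had 36 of 11366 genes past the threshold (0.317%) and experiment 2 had 5 of 12041 (0.0415%). Of the 31 genes past the threshold in experiment 3 other than the sort marker, all 31 were tested in experiment 2 and 29 had the same direction there, beside 55% of all genes tested in both. Apod and Igfbp6 were the exceptions. Actc1, Myog and Tmem8c passed the test in experiment 2 as well. In experiment 1, 29 of the 31 were tested and 25 had the same direction, beside 51.6% of all genes. Acta1, Actc1, Cdkn1c, Gal, Mycl, Myog and Rbm24 passed the test there, and Dcn, Fam129a, Igfbp6 and Il33 went the other way. Myog differed by 5.80 in experiment 3, 7.75 in experiment 2 and 11.76 in experiment 1 on the log2 scale, and Cdkn1c by 2.99, 2.61 and 4.06. Mean Myog in CD34Lo was 94.4 ± 9.89 CPM (SD, n = 4) in experiment 2 and 124 ± 87.9 CPM (SD, n = 4) in experiment 1, against 0.476 ± 0.576 CPM (SD, n = 4) and 0.019 ± 0.038 CPM (SD, n = 4) in CD34Hi. Its fitted fold changes there depend on these few counts in CD34Hi, and Mycl in experiment 1 and Tmem8c in experiment 2 had 0 counts in all 4 CD34Hi libraries. Gal differed by -1.28, -1.18 and -1.23, nearly the same value in each. Igfbp4 (-2.26, -1.55 and -1.03) and Ryr3 (-2.16, -1.65 and -1.07) kept their direction in all of them without passing the test in experiments 1 or 2.

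**Figure D5:**
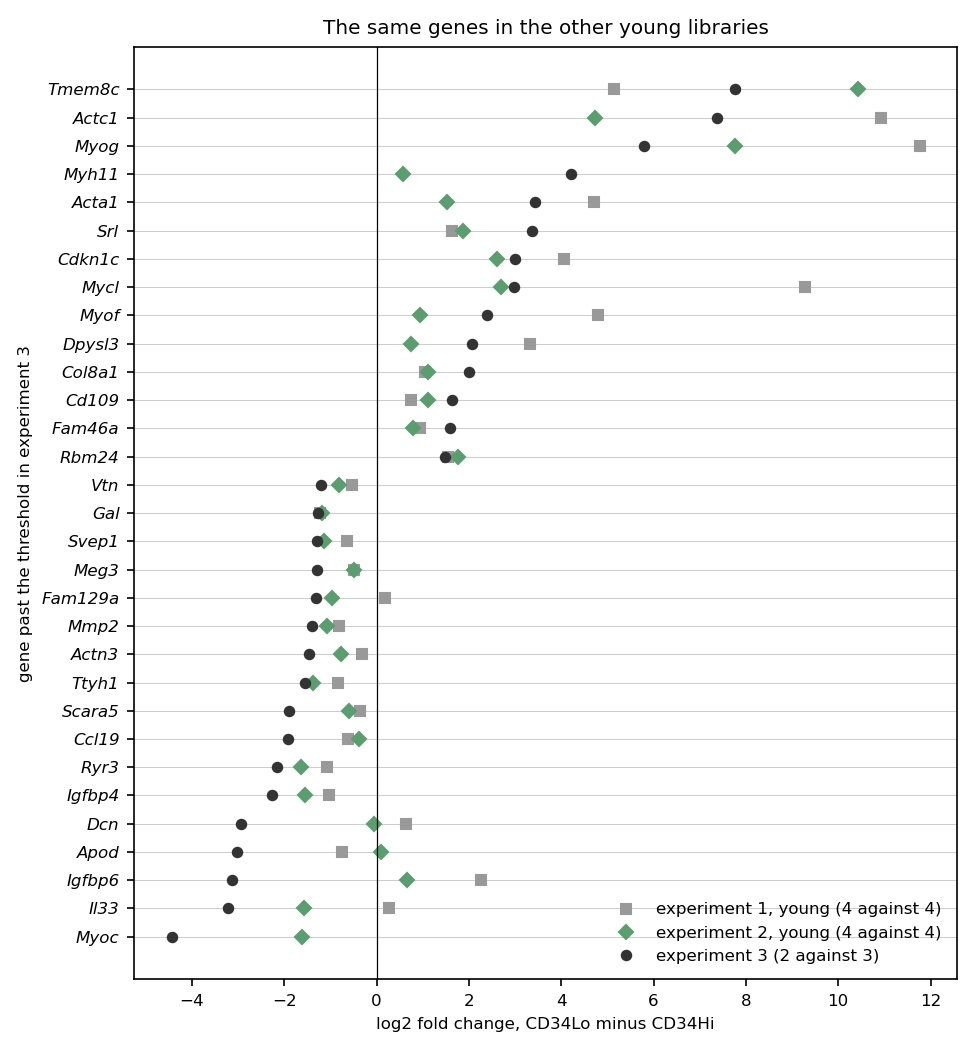
Fitted log2 fold change (CD34Lo minus CD34Hi) of the 31 genes past the threshold in experiment 3 other than Cd34, in experiment 3 (circles, 2 against 3 libraries), experiment 2 (diamonds, 4 against 4) and experiment 1 (squares, 4 against 4). All 14 higher genes have every plotted point to the right of 0, while Dcn, Apod, Igfbp6, Il33 and Fam129a have a point on the other side; Myh11 and Myoc were not tested in experiment 1.

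Dcn, Igfbp6 and Apod, like most of the 31 genes, passed the test in experiment 3 and in neither of the other experiments. Dcn was -2.94 in experiment 3, -0.05 in experiment 2 and 0.65 in experiment 1, and Igfbp6 was -3.13, 0.66 and 2.27. Apod was -3.04, 0.09 and -0.74. The difference between experiments was tested as the interaction of gate and experiment over the 13 young libraries of experiments 2 and 3. Over 13607 genes 0 passed edgeR's test (0%), 530 had an unadjusted p under 0.05 and 30 passed in DESeq2. With CD34Hi replicate 2 of experiment 3 left out, or CD34Lo replicate 4 of experiment 2, 1 gene passed. The unadjusted interaction p was 0.000695 for Dcn, 0.00119 for Igfbp6 and 0.00256 for Apod, with adjusted p of 0.701, 0.716 and 0.844. The gate effect was thus not shown to differ between the experiments for any gene by edgeR's test.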

How the data were processed

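RNA was measured in satellite cells sorted from skeletal muscle. Values are raw counts of reads per gene, as the authors deposited them, in tables for each experiment. Low-input cDNA (SMART-Seq v4) and Nextera XT libraries were used, per the labels' protocols. The submitters' processing notes name bcl2fastq 2.17.1, Trim Galore, TopHat2 2.1.1, HTSeq, Partek 7.0 and the build mm10, without roles or order. The table's columns name a gate and not a sample, so each column was assigned to its gate only. In the tables used, 15 other columns were not used.

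Counts were tested with edgeR 4.0.16 (R 4.3.3), with TMM scaling, filterByExpr (minimum count 10, minimum total 15), the quasi-likelihood F test and Benjamini-Hochberg adjustment over all genes tested, at 0.05. The function's default in this version is the older quasi-likelihood method, and it was used; the newer one is an added alternative, although the plan had named them the other way round. The standard error is the size of the log2 fold change divided by the square root of F. CPM use TMM-scaled totals. Experiments 1 and 2 were fitted alone, and the interaction of gate and experiment over experiments 2 and 3 together. DESeq2 1.42.0, limma 3.58.1 (voom), other filters, thinned counts and leaving out each library were the alternatives. Scripts were tested on simulated data. Total counts of 38261838 to 70458581 per library set the counting error, and ranges, intervals (exact, 95%) and floors (3 counts) cover that error only, since no molecular identifiers were used.

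Genes named are all past the threshold, the 15 satellite cell and gate genes always shown, the 6 genes under 1 CPM with the lowest p on each side, and per list up to 3 others with the largest difference among those whose gates do not overlap. Others named were chosen after their values were seen. The libraries, members and 24 lists were chosen with earlier results of these data known, by this work and not by the study. Gene positions are from GENCODE M21 (GRCm38) and promoters from RefSeq (GRCm38.p6), which matched 8 of 14 higher and 13 of 18 lower genes. The values of 1 named gene are not reported here.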

Additional observations from a re-analysis of the deposited data

How the results depend on the processing

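Of the 32 genes past the threshold, 26 passed with limma voom, and Actc1, Mycl, Myh11, Myoc, Myog and Tmem8c did not. With robust quasi-likelihood 28 passed, and Igfbp4, Myoc, Myog and Ryr3 did not. The 32 genes kept their direction in all 15 alternative fits, which the separation of their gates all but fixed beforehand. Their count was 259 with DESeq2, 50 with limma voom, 72 with the newer quasi-likelihood method, 49 with robust quasi-likelihood, 337 with no filter on low counts, 51 with counts thinned to the lowest total of experiments 1 and 2, and 573 without the second library of each gate (chosen after seeing the data). Leaving out 1 library gave 1 to 104, and a lone CD34Lo library then takes its spread from CD34Hi. Myogenic genes that rose, 7 in the report, numbered 11 with DESeq2, 4 with voom, 12 without both second libraries, and 0 to 8 when 1 library was left out. Fibroblast markers that fell, 3 in the report, numbered 12 with DESeq2, 6 with voom, 8 with the newer method, 5 with robust quasi-likelihood, 11 unfiltered, 6 thinned, 12 without both second libraries, and 1 to 8 by single libraries. Matrix genes that fell, 3 in the report, numbered 10 with DESeq2, 5 with voom, 5 with the newer method, 12 unfiltered, 11 without both second libraries, and 1 to 4 by single libraries. Genes under 1 CPM, 0 in the report, numbered 21 with DESeq2, 4 unfiltered, 16 without both second libraries and 0 by single libraries. The interaction of gate and experiment, 0 in the report, gave 30 genes with DESeq2 and 0 to 1 by single libraries (1 without experiment 3 CD34Hi replicate 2, and 1 without experiment 2 CD34Lo replicate 4). Any CANNTG stood in 88.9% of the promoters of higher genes, beside 11.1% for CAGCTG and 72.3% of all promoters for CANNTG. Ly6a, at 0.35 in the report and -2.41 with limma voom on all libraries (adjusted p = 0.755), ranged from -11.03 to 1.35 by single libraries, reversed without CD34Lo replicate 2, and was -10.55 without both second libraries (adjusted p = 0.0103 without the former and 1.92e-07 without both by edgeR's quasi-likelihood test). Apart from settings that test fewer genes or samples, the cause was not tested. No paired analysis was possible because the columns carry no replicate numbers that the gates share. Under 1 CPM the median standard error was 2.05, and 52.4% of genes had 0 counts in one CD34Hi library and 10 or more in another; the part of depth was not tested.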

Other observations

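Genes of the interferon response and antigen presentation had a fold change below 0 in 30 of the 38 tested, with a median log2 fold change of -0.31. None passed edgeR's test and 2 passed in DESeq2. An unadjusted p under 0.05 was found for 8 (21.1%, beside 8.45% of all genes), all lower. Cxcl10, an interferon-induced chemokine, was at 19.1, 22.7 and 21.9 CPM in CD34Hi and 6.44 and 10.1 CPM in CD34Lo (log2 fold change -1.35, SE 0.29, adjusted p = 0.121). Irgm1, an interferon-induced GTPase, was at 97.3, 47.5 and 96.8 CPM in CD34Hi and 31.7 and 28.8 CPM in CD34Lo (log2 fold change -1.41, SE 0.30, adjusted p = 0.112). Both had every CD34Lo library below every CD34Hi library. They were the only 2 of the 38 that separated by 1 or more (5.26%, beside 3.87% of all genes). At 10 CPM or more the share was 7.69%, beside 1.58%. Cxcl10 differed by 0.67 in experiment 2 and -1.15 in experiment 1, and Irgm1 by -0.50 and 0.13, without passing the test. In the FGF pathway 19 of 24 tested genes were below 0, with a median of -0.5. None passed edgeR's test (3, or 12.5%, with an unadjusted p under 0.05, 1 in DESeq2). Fgfr4, a receptor of that family, was at 265, 194 and 431 CPM in CD34Hi and 134 and 157 CPM in CD34Lo (log2 fold change -1.03, SE 0.29, adjusted p = 0.261). It differed by 0.18 in experiment 2 and 0.74 in experiment 1, without passing the test.

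Antagonists of bone morphogenetic proteins and transforming growth factor β were below 0 in 12 of 15 cases, with a median of -0.35, beside 8 of 16 ligands (median -0.01) and 6 of 12 receptors (median -0.04). Gas1, a membrane protein that binds Hedgehog ligands and is grouped with the antagonists here, was at 183, 122 and 276 CPM in CD34Hi and 87.7 and 85.7 CPM in CD34Lo. Its log2 fold change was -1.16 here, 0.37 in experiment 2 and 0.31 in experiment 1, without passing the test in any. Over the 48 genes of the pathway 0 passed edgeR's test and 3 passed in DESeq2. An unadjusted p under 0.05 was found for 9 (18.8%, beside 8.45% of all genes), all lower. Oxidative phosphorylation genes ranged from -0.53 to 0.8 with a median of 0.11 over 55 genes. Of these, 0 were past edgeR's test, 1 (1.82%) was at an unadjusted p under 0.05 and 0 passed in DESeq2. In the Wnt pathway 0 of 42 passed edgeR's test (6, or 14.3%, at an unadjusted p under 0.05, 1 in DESeq2). The secreted inhibitor Sfrp5 was at 9.07, 6.05 and 16.1 CPM in CD34Hi and 0.859 and 3.82 CPM in CD34Lo. Hox genes (24 tested, median 0.13) had 0 past edgeR's test, 2 (8.33%) at an unadjusted p under 0.05 and 0 in DESeq2. Axon guidance genes (44 tested, median -0.02) had 0, 7 (15.9%) and 1.

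Ly6a, at 3.95, 9.61 and 5.05 CPM in CD34Hi and 0 and 15.8 CPM in CD34Lo, stood at a log2 fold change of 0.35 with all libraries, at -2.41 with limma voom and at -11.03 without CD34Lo replicate 2, its only CD34Lo library with counts. This gene was chosen for mention after its values were seen.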
